A study of Mus musculus with 24 samples.

Results

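Metaphase II (MII) eggs of Nlrp14 knockout mice were compared with MII eggs of wild-type mice by RNA sequencing. The comparison rests on 6 of the 24 libraries of the series, 3 of each genotype, taken by their genotype and stage labels. Each library was made from the RNA of 5 pooled eggs with the SMART-Seq HT kit, and the 3 libraries of a genotype are labelled as biological replicates. The other libraries hold germinal vesicle (GV) oocytes, zygotes of the late pronuclear stage (PN5) and 2-cell embryos of both genotypes. The sources used here do not give the strain, the age of the females, hormone treatment or the deleted piece of the gene. Whether the pools came from separate females is likewise not given, so p-values measure the spread between these pools.

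NLRP14 is a protein of the NLR family, with a pyrin domain and leucine-rich repeats, that is made in growing oocytes. The MII egg is the ovulated, arrested cell that awaits the sperm. Its nucleus is silent, so its messenger RNAs are those stored earlier by the growing oocyte, and their levels during maturation depend on storage, tail length and decay. Mitochondria keep their own genome, which codes for core subunits of the respiratory chain, and the egg carries a large store of them.

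The samples carried the markers of eggs. All 17 egg markers were tested, and their summed level was 33591 to 44193 FPKM (fragments per kilobase, scaled to the depth of the library) in knockout and 30792 to 31766 FPKM in wild-type libraries. Of 28 granulosa and cumulus markers, 10 were listed at 0 in all 6 libraries and 1, Cyp19a1, reached the filter for testing. The sum of these 28 was 18.2 to 28.7 FPKM in knockout and 17.4 to 22.02 FPKM in wild-type libraries. The 18 sperm markers summed to 6.98 to 10.96 FPKM in knockout and 10.9 to 11.9 FPKM in wild type, with 10 at 0 throughout. The 18 blood, stroma and oviduct markers summed to 6.39 to 10.7 FPKM in knockout and 8.31 to 8.95 FPKM in wild type, with 8 at 0 throughout. Depth implied by the deposited values was 11.01, 11.2 and 10.6 M fragments in knockout and 9.85, 11.3 and 12.3 M in wild-type replicates 1, 2 and 3. At that depth 1 fragment in a gene of 1 kb is worth 0.0814 to 0.102 FPKM. Between 7946 and 8348 genes reached 1 FPKM in knockout libraries, against 8756 to 8974 in wild type.

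The knockout libraries were spread, and knockout replicate 1 lay nearer to the wild-type libraries than to the other knockout libraries. Over all tested genes, the median absolute difference on the log2(FPKM + 1) scale was 0.43 between knockout replicates 1 and 2 and 0.30 between knockout replicates 1 and 3. It was 0.24 between knockout replicates 2 and 3. Between knockout replicate 1 and the 3 wild-type libraries it was 0.23 to 0.24, and 0.15 to 0.18 among the wild-type libraries. Knockout replicate 2 was the farthest from wild type, at 0.46 to 0.52, and knockout replicate 3 lay between, at 0.34 to 0.40. Counts of called genes, in all and in each gene list, are given with and without knockout replicate 1. Without each of the other libraries, counts are given over all genes. The slope of log2 level on log2 gene length also differed, at 0.03, -0.10 and -0.04 in knockout replicates 1, 2 and 3 and 0.02 to 0.04 in wild type.

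**Figure D1:**
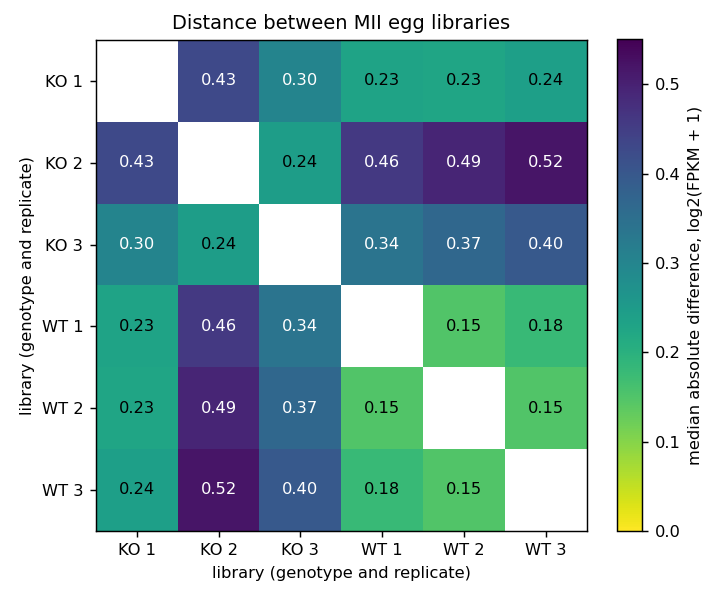
Median absolute difference in log2(FPKM + 1) between each pair of MII libraries over the 8739 tested genes, with knockout (KO) libraries before wild-type (WT) libraries on both axes. Knockout replicate 1 lies at 0.23 to 0.24 from the wild-type libraries and at 0.30 and 0.43 from the other knockout libraries, which lie at 0.24 from each other.

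The targeted gene was low in each knockout library. Nlrp14 (ENSMUSG00000016626, chromosome 7, 107166990 to 107198102, + strand, GRCm38) had 14.6, 22.9 and 21.3 FPKM in knockout eggs, against 380.4, 447 and 345 FPKM in wild-type eggs. No library overlapped the other group, and the level in knockout eggs was 0.0502 of that in wild type. Since a gene-level value does not separate exons, the remaining signal cannot be assigned to a part of the gene.

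Most of the called genes were lower in knockout eggs. Of 8739 genes that reached 1 FPKM in 3 or more of the 6 libraries, limma called 199 at an adjusted p under 0.05 (2.28%), of which 28 were higher (0.32%) and 171 lower (1.96%), while 2544 had an unadjusted p under 0.05. In all 199 the 2 groups did not overlap, which was true of 34.5% of all tested genes. After scaling by the median of ratios between libraries, 83 genes were called (0.95%), 20 higher (0.229%) and 63 lower (0.721%), and 81 of them were among the 199. With the trend of level on gene length removed, 132 were called, 48 higher and 84 lower, and 106 were among the 199. The median log2 difference of all tested genes was -0.18 as deposited and -0.04 after that scaling. It was 0.01 once the trend with gene length was removed and -0.37 on the TPM scale (values rescaled to the same sum in every library), so single differences stand on a shift of up to that size. Without knockout replicate 1 all 199 genes stayed called, within a total of 3088 (35.3%), 769 higher (8.8%) and 2319 lower (26.5%). The balance of these depended on the scaling, since the same fit after median-of-ratios scaling called 1265 higher (14.5%) and 1565 lower (17.9%), 32.4% in all. Leaving out any other library left 3 to 68 calls. Of all tested genes, 66.1% had a negative difference at MII as deposited. After median-of-ratios scaling 4000 of the 8739 were positive, and 4450 with the length trend removed. In bulk libraries, a fall in some eggs of a pool and a smaller fall in all of them cannot be told apart. FPKM are scaled to the depth of each library, so they do not give the amount of a transcript per egg.

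Many of the lower genes were transcripts of modest level. In 118 of the 171 the fall was at least 2-fold on the log2(FPKM + 1) scale, and 77 had a wild-type mean under 5 FPKM, where that scale understates the change. The deepest fall after Nlrp14 among protein-coding genes of at least 5 FPKM was in Cdc42ep3, which codes for an effector of CDC42, a small GTPase of actin organisation and cell polarity. Cdc42ep3 (chromosome 17, 79333727 to 79355091, - strand) had 1.16, 1.17 and 0.869 FPKM in knockout eggs, against 8.29, 12.6 and 13.4 FPKM in wild-type eggs. Each wild-type library was above every knockout library, with a log2 difference of -2.57 (SE 0.21, adjusted p = 0.0043 by limma). Cdc42ep3 stayed called when any 1 of the 6 libraries was left out, with adjusted p between 0.0019 and 0.045.

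Gca codes for grancalcin, a calcium-binding EF-hand protein. It had 0.252, 0.745 and 0.762 FPKM in knockout eggs and 5.25, 7.89 and 4.98 FPKM in wild-type eggs (log2 difference -2.14, SE 0.22, limma adjusted p = 0.011). It was called in 5 of the 6 fits that left out a library. Cyp4v3, a cytochrome P450 that hydroxylates fatty acids, had 2.24, 1.62 and 2.04 FPKM in knockout eggs and 10.3, 9.83 and 10.1 FPKM in wild-type eggs. Its 3 wild-type values lay close together, the log2 difference was -1.91 (SE 0.16, limma adjusted p = 0.0043), and it too was called in 5 of those 6 fits. The kallikrein gene Klk15 had 0.290, 0.784 and 0.226 FPKM in knockout eggs and 6.16, 4.17 and 4.16 FPKM in wild-type eggs, a log2 difference of -2.03, called in 4 of the fits.

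Other falls came from genes of varied roles. Rab32, a small GTPase of lysosome-related organelles and mitochondria, had 4.06, 6.33 and 4.71 FPKM in knockout eggs and 16.2, 15.8 and 19.5 FPKM in wild-type eggs (log2 difference -1.60, limma adjusted p = 0.014). Epn2, an endocytic adaptor, had 9.11, 4.79 and 3.29 FPKM in knockout eggs and 15.3, 17.6 and 20.0 FPKM in wild-type eggs, so knockout replicate 1 was the nearest to wild type (log2 -1.56, limma adjusted p = 0.041). Pebp1, an inhibitor of RAF kinase signalling, had 2.33, 3.02 and 2.12 FPKM in knockout eggs and 10.1, 14.4 and 8.48 FPKM in wild-type eggs (log2 -1.76). Tnfsf11, the cytokine RANKL, averaged 1.91 ± 0.197 FPKM in knockout and 6.36 ± 0.957 FPKM in wild-type eggs (SD, n = 3 each, log2 -1.33). Hilpda, a protein of lipid droplets, averaged 3.76 ± 1.19 FPKM in knockout and 10.3 ± 0.447 FPKM in wild-type eggs (log2 -1.28). Epn2 was called in 1 of the 6 fits that left out a library, Rab32, Tnfsf11 and Hilpda in 2 and Pebp1 in 3. Scaling by the median of ratios ended the calls of Epn2 and Hilpda (adjusted p = 0.062 each).

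The genes with the highest levels among the falls were also clear of overlap. Gstm5, a glutathione S-transferase, had 21.9, 34.5 and 23.2 FPKM in knockout eggs and 77.3, 96.5 and 68.0 FPKM in wild-type eggs (log2 difference -1.58, SE 0.21, limma adjusted p = 0.017). Zp3, a glycoprotein of the zona pellucida around the egg, had 52.9, 55.8 and 43.0 FPKM in knockout eggs and 82.8, 88.0 and 86.6 FPKM in wild-type eggs (log2 -0.76, limma adjusted p = 0.043). Prr23a3 had 28.8, 24.7 and 19.7 FPKM in knockout eggs and 62.8, 63.5 and 61.3 FPKM in wild-type eggs (log2 -1.34), and the cohesin release factor Wapl 40.7, 32.2 and 24.8 against 70.0, 66.2 and 61.9 FPKM (log2 -1.02). Calr3, a calreticulin of the endoplasmic reticulum, and Gpm6a, a membrane glycoprotein, both averaged 40.9 FPKM in knockout eggs, against 76.4 FPKM for Calr3 and 74.6 FPKM for Gpm6a in wild-type eggs. After median-of-ratios scaling Gstm5 (adjusted p = 0.043) and Prr23a3 (0.025) stayed called. Zp3 (0.091), Wapl (0.068), Calr3 (0.080) and Gpm6a (0.077) did not. All but Gstm5 and Prr23a3, which were called in 2, were called in 1 of the 6 fits that left out a library.

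Falls were also found in the transcription factor genes Zfp961 (log2 -1.83), Lbx1 (-1.62) and Hivep1 (-1.45), all in limma at adjusted p between 0.021 and 0.025. Hivep1 codes for a large zinc-finger protein and Lbx1 for a homeobox protein. Slc16a12, a transporter of the monocarboxylate family, averaged 1.10 ± 0.306 FPKM in knockout and 4.37 ± 0.672 FPKM in wild-type eggs. The tyrosine phosphatase gene Ptp4a1 (ENSMUSG00000026064) averaged 12.6 ± 7.24 FPKM in knockout and 50.6 ± 13.9 FPKM in wild-type eggs, and is uncertain because a second gene model of that symbol is identical over 92.6% of its length. After median-of-ratios scaling Ptp4a1 was no longer called (adjusted p = 0.062). Zfp961, Lbx1 and Hivep1 were called in 1 of the 6 fits that left out a library, and Slc16a12 and Ptp4a1 in 2.

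**Figure D2:**
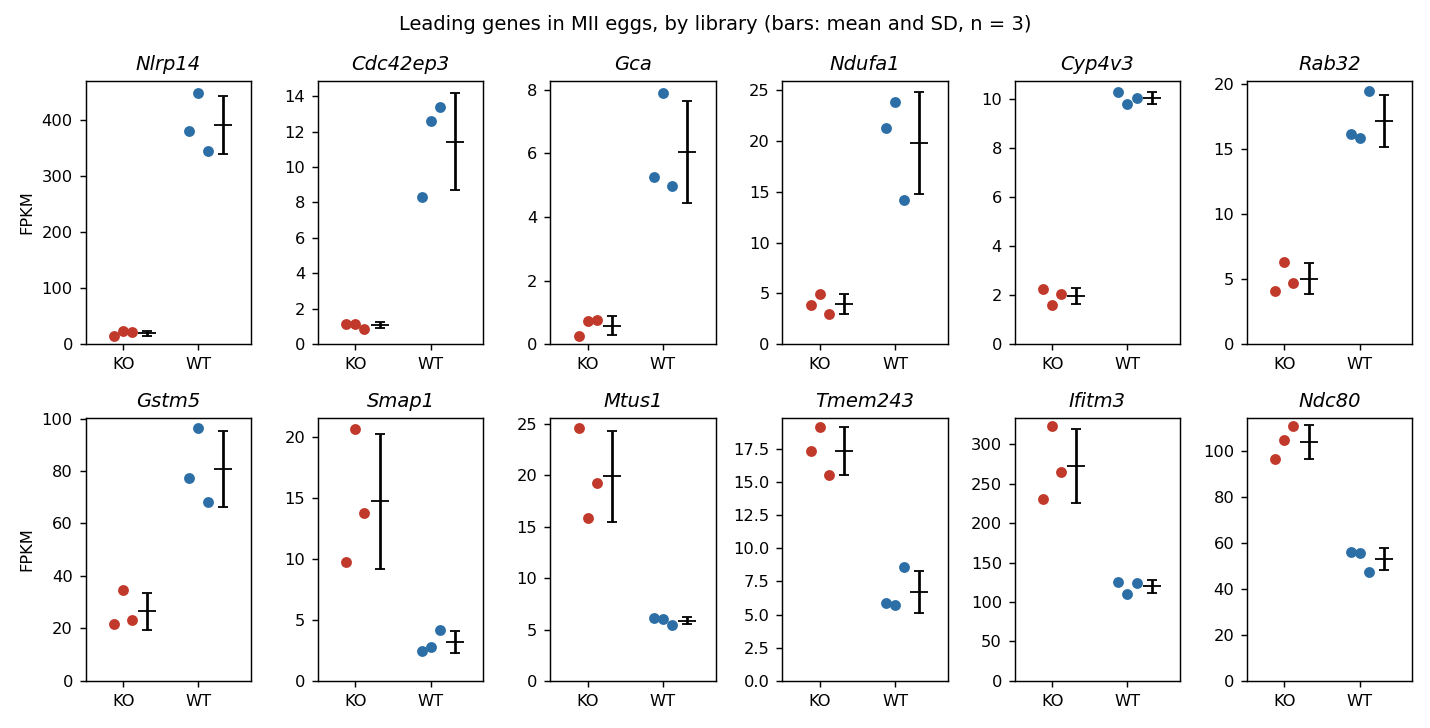
FPKM (linear axes from 0) of 12 called genes in each MII library, knockout (KO) left of wild type (WT), with the mean and SD of 3 libraries beside the points. In every panel the knockout points lie wholly below (Nlrp14 to Gstm5) or wholly above (Smap1 to Ndc80) the wild-type points.

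The kit primes reverse transcription on the poly(A) tail, so the annotated 3′ ends of 4 called transcripts are shown, 2 that fell and 2 that rose. Each line holds the last 30 bases before the tail in GENCODE M21 (build GRCm38), with the polyadenylation signal AATAAA in capitals.
Cdc42ep3: catcataccacgcAATAAAgagtaaatgct
Ndufa1: tgcatAATAAAaaattttaaaaaatctaaa
Ifitm3: tcAATAAAgtgcacttgataaccaccatcc
Ndc80: acagttAATAAAgtatacttgtaaagtgtg
These ends lie at chr17:79333727-79333756 (- strand) for Cdc42ep3, chrX:37187588-37187617 (- strand) for Ndufa1, chr7:141009586-141009615 (- strand) for Ifitm3 and chr17:71496100-71496129 (- strand) for Ndc80. The signal AATAAA was found on the transcript strand in the last 40 bases of 64.9% of 114 lower and 68.4% of 19 higher protein-coding genes, beside 65.1% of 6509 tested genes. The letters TTTTAT, the core of the cytoplasmic polyadenylation element, were found in the last 100 bases of 24.6% of the lower and 15.8% of the higher genes, beside 18.3% of all. These shares are descriptions of the annotated ends and were not tested.

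Of the 28 higher genes, 14 rose at least 2-fold on the log2(FPKM + 1) scale. Smap1 codes for a GTPase-activating protein for ARF in vesicle traffic. It had 9.73, 20.7 and 13.8 FPKM in knockout eggs and 2.49, 2.82 and 4.196 FPKM in wild-type eggs (log2 difference 1.88, SE 0.28, limma adjusted p = 0.020). Mtus1, a microtubule-associated protein, had 24.7, 15.9 and 19.3 FPKM in knockout eggs and 6.10, 6.07 and 5.46 FPKM in wild-type eggs (log2 1.59, SE 0.19, limma adjusted p = 0.014). The 3 wild-type values of Mtus1 lay close together, and all knockout values were above them. Tmem243 had 17.3, 19.1 and 15.5 FPKM in knockout eggs and 5.90, 5.74 and 8.55 FPKM in wild-type eggs (log2 1.26, limma adjusted p = 0.021).

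Ifitm3, an interferon-induced membrane protein gene that is also active in germ cells, was among the higher genes of high level. It had 230.7, 323 and 265 FPKM in knockout eggs and 126, 110.4 and 124 FPKM in wild-type eggs (log2 1.17, SE 0.16, limma adjusted p = 0.017). Ndc80, the kinetochore subunit that binds spindle microtubules, had 96.4, 105 and 111 FPKM in knockout eggs and 56.1, 55.7 and 47.5 FPKM in wild-type eggs (log2 0.96, SE 0.14, limma adjusted p = 0.020). Slbp, the stem-loop binding protein of histone messages, had 804, 934 and 957 FPKM in knockout eggs and 582, 555 and 528 FPKM in wild-type eggs (log2 0.69, SE 0.13, limma adjusted p = 0.041). Srsf7, a splicing factor, averaged 23.9 ± 5.52 FPKM in knockout and 11.5 ± 0.296 FPKM in wild-type eggs. Daw1, a factor of ciliary dynein transport, averaged 34.5 ± 9.23 FPKM in knockout and 15.5 ± 1.78 FPKM in wild-type eggs. Psmg4, a chaperone of proteasome assembly, averaged 10.3 ± 2.74 FPKM in knockout and 4.004 ± 0.833 FPKM in wild-type eggs, and Dirc2, a lysosomal membrane transporter, 5.69 ± 1.38 against 1.56 ± 0.840 FPKM. The alpha-tubulin gene Tuba1c averaged 50.8 ± 10.3 FPKM in knockout and 26.4 ± 2.55 FPKM in wild-type eggs, and resembles 11 other gene models at 90% identity or more, so its reads may be shared.

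Ifitm3, Ndc80, Smap1 and Mtus1 were called in 2 of the 6 fits that left out a library, and the other higher genes named so far in 1. No higher gene was called in more than 2, and of the lower genes 115 were called in 1 and 42 in 2. Median-of-ratios scaling kept the calls of Smap1, Mtus1, Tmem243, Ifitm3, Ndc80 and Slbp, and moved those of Srsf7, Daw1, Psmg4, Dirc2 and Tuba1c just past the threshold (adjusted p = 0.051 to 0.052). The highest limma adjusted p with a library left out was 0.12 for Smap1, 0.078 for Mtus1, 0.10 for Ifitm3 and 0.12 for Ndc80. The log2 difference itself stayed between 1.62 and 2.12 for Smap1, 1.43 and 1.73 for Mtus1, 1.04 and 1.28 for Ifitm3, and 0.88 and 1.01 for Ndc80.

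The 13 protein-coding transcripts of mitochondrial DNA each had a higher mean in knockout eggs, and 2 of them, mt-Nd4 and mt-Nd1, passed the test over all genes. The 13 differences were positive, against 33.9% of all tested genes, of which 0.32% were called higher. The groups overlapped for none of the 13, beside 34.5% of all genes without overlap. The 13 come from 1 genome and were measured in the same 6 libraries, so they do not count as 13 separate observations. Their summed level was 28598 ± 3839 FPKM in knockout and 18025 ± 1767 FPKM in wild-type eggs (SD, n = 3 each), a ratio of 1.59. The exact two-sided permutation test gave p = 0.1, the smallest it can give with 3 against 3. The ratio was 1.79 after median-of-ratios scaling, 1.40 as TPM and 1.47 to 1.68 with 1 library left out.

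By complex, the complex I subunit mt-Nd4 had 1573, 1783 and 1653 FPKM in knockout eggs and 813, 1100 and 1011 FPKM in wild-type eggs (log2 0.79, SE 0.15, limma adjusted p = 0.041). The subunit mt-Nd1 had 3219, 3497 and 3311 FPKM in knockout eggs and 2001, 2367 and 2028 FPKM in wild-type eggs (log2 0.65, limma adjusted p = 0.041). The complex IV subunit mt-Co1 had 2139, 3153 and 2585 FPKM in knockout eggs and 1349, 1769 and 1516 FPKM in wild-type eggs, the complex III subunit mt-Cytb 4604, 6220 and 5345 against 3252, 3864 and 3626 FPKM, and the ATP synthase subunit mt-Atp6 5087, 7737 and 6243 against 3539, 4179 and 3849 FPKM. These last 3 did not pass (limma adjusted p = 0.060, 0.069 and 0.063). The differences of the 13 ran from 0.43 for mt-Nd3 to 0.79 for mt-Nd4. All 13 had an unadjusted p under 0.05. Both calls lay close to the threshold. After median-of-ratios scaling mt-Nd4 stayed called (adjusted p = 0.047) and mt-Nd1 did not (0.0502). Both were called with the length trend removed, and neither as TPM (adjusted p = 0.0508 for mt-Nd4), with a pseudocount of 0.1 (0.057), with no filter (0.15), with the replicate number as a block (0.052) or with all 24 libraries in 1 fit (0.194 for mt-Nd4 and 0.253 for mt-Nd1). Without knockout replicate 1 the test called 12 of the 13 higher, beside 8.8% of all genes, and without any other library neither of those 2. The ribosomal RNAs of the mitochondrion had smaller differences, with 1170 ± 90.5 FPKM in knockout and 896 ± 8.08 FPKM in wild-type eggs for mt-Rnr2 (log2 0.38, limma adjusted p = 0.10) and 435 ± 38.9 against 419 ± 32.9 FPKM for mt-Rnr1 (log2 0.05). Neither passed with all 6 libraries. Without knockout replicate 1, mt-Rnr2 was called higher (limma adjusted p = 0.017) and mt-Rnr1 was not called (0.93). Some nuclear copies of mitochondrial sequence resemble these genes. Gm28439 is 100% identical to mt-Nd4 over 63.6% of the length of mt-Nd4. Gm13339 matches mt-Nd2 at 96.7% identity and was itself called higher (log2 0.73). The reads of mt-Nd4 and mt-Nd2 may therefore be shared with these copies.

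**Figure D3:**
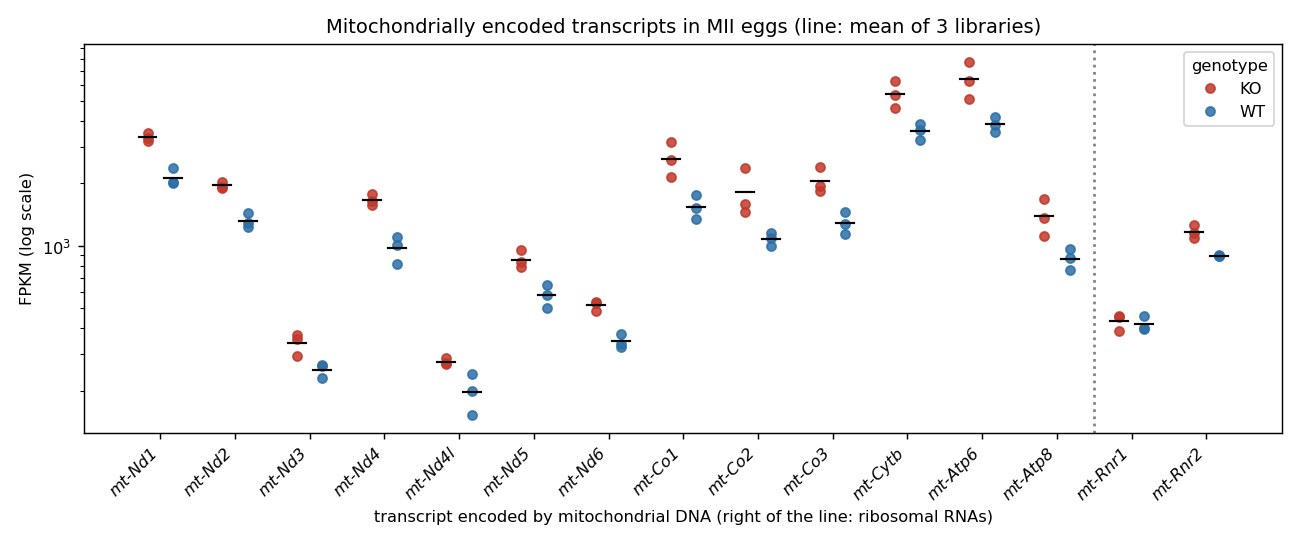
FPKM (log axis) of the 13 protein-coding transcripts and 2 ribosomal RNAs encoded by mitochondrial DNA in each MII library, knockout (KO, red) left of wild type (WT, blue), with the mean of 3 libraries as a line. For each of the 13 the knockout points lie above the wild-type points, while the groups overlap for mt-Rnr1.

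Nuclear genes of the respiratory chain gave a mixed picture. Of 54 tested, none rose and 2 fell, beside 0.32% of all genes called higher and 1.96% lower, with 30 positive and a list median of 0.09. Ndufa1, an accessory subunit of complex I, had 3.90, 4.90 and 2.93 FPKM in knockout eggs and 21.3, 23.9 and 14.2 FPKM in wild-type eggs (log2 -2.07, SE 0.24, limma adjusted p = 0.013). Uqcr11, a small subunit of complex III, had 0.409, 0.564 and 0.682 FPKM in knockout eggs and 4.67, 5.82 and 2.64 FPKM in wild-type eggs (log2 -1.75, limma adjusted p = 0.017). The groups did not overlap for either gene, and of the 6 fits that left out a library Ndufa1 was called in 3 and Uqcr11 in 2. The processed pseudogene Gm16418, 98.8% identical to Uqcr11, was also called lower, so how reads were split between them is uncertain. In the fit without knockout replicate 1, 10 of the 54 were higher and 4 lower, beside 8.8% and 26.5% of all genes. Among the 18 tested genes of mitochondrial transcription and RNA turnover limma called none (2 at an unadjusted p under 0.05). Without knockout replicate 1, 1 of the 18 was higher and 4 were lower, beside the same 8.8% and 26.5%. In that list the helicase Twnk had 0.954 FPKM in knockout and 1.95 FPKM in wild-type eggs (log2 -0.59, limma adjusted p = 0.11).

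Of 29 tested cytosolic ribosomal proteins limma called none (8 at an unadjusted p under 0.05), 21 were positive, beside 33.9% of all genes, and the median was 0.22 (0.05 on the TPM scale). Rpl17 averaged 10.1 ± 0.235 FPKM in knockout and 17.5 ± 2.77 FPKM in wild-type eggs (log2 -0.73, limma adjusted p = 0.059). Rpl41 averaged 0.996 ± 0.221 FPKM in knockout and 3.75 ± 2.19 FPKM in wild-type eggs (limma adjusted p = 0.068). Rps15, on the positive side, averaged 1.905 ± 0.653 FPKM in knockout and 0.654 ± 0.237 FPKM in wild-type eggs (log2 0.80, limma adjusted p = 0.073). These 3 had the smallest p of the list. Leaving out knockout replicate 1 gave 10 higher and 3 lower, beside 8.8% and 26.5% of all genes.

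The subcortical maternal complex is an assembly of maternal proteins under the egg membrane. None of its 8 members passed in limma (4 had an unadjusted p under 0.05), 6 were negative, and the median was -0.47 beside -0.18 for all genes (-0.31 beside -0.04 after median-of-ratios scaling). Tle6 had 24.9, 13.3 and 13.7 FPKM in knockout eggs and 31.4, 37.6 and 31.7 FPKM in wild-type eggs (log2 -0.97, limma adjusted p = 0.069). Nlrp5 had 39.8, 27.6 and 32.2 FPKM in knockout eggs and 50.6, 51.6 and 46.3 FPKM in wild-type eggs (log2 -0.58, limma adjusted p = 0.087). For both genes knockout replicate 1 was the nearest to wild type and no library overlapped the other group. Without it, 6 of the 8 were called lower, beside 26.5% of all genes. The same fit after median-of-ratios scaling called 4 lower and 1 higher, beside 17.9% and 14.5% of all genes. Among 11 tested genes of the oocyte NLRP family none was called (5 at an unadjusted p under 0.05), 10 were negative, and Nlrp4f averaged 119 ± 29.5 FPKM in knockout and 169.8 ± 10.6 FPKM in wild-type eggs. The median of that list was -0.29 as deposited and -0.15 after median-of-ratios scaling, where 4 of the 11 were positive. Without knockout replicate 1 the fit as deposited called 1 of the 11 higher and 5 lower, beside 8.8% and 26.5% of all genes.

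Among 8 tested zona pellucida and sperm-egg genes, Zp3 was the 1 called, beside 1.96% of all genes called lower. Without knockout replicate 1, 2 of the 8 were lower, beside 26.5% of all genes. Of 27 oocyte identity factors limma called none (8 at an unadjusted p under 0.05), and 14 were positive, beside 33.9% of all genes. In that list the receptor gene Kit averaged 8.34 ± 2.45 FPKM in knockout and 16.9 ± 0.684 FPKM in wild-type eggs (log2 -0.97, limma adjusted p = 0.057). The oocyte-secreted protein gene Oosp1 averaged 4532 ± 1369 FPKM in knockout and 2525 ± 222 FPKM in wild-type eggs, and the histone chaperone Npm2 183 ± 42.3 against 109 ± 13.5 FPKM (limma adjusted p = 0.076 and 0.083). When knockout replicate 1 was left out, 8 of the 27 were higher and 7 lower, beside 8.8% and 26.5% of all genes.

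Genes of the metaphase arrest were not called. Of 41 tested genes of metaphase II arrest and of MPF (the cyclin B kinase that holds it) none passed in limma (10 at an unadjusted p under 0.05), and 30 were negative. That is 73.2%, beside 66.1% of all genes, and with the length trend removed 25 of the 41 were positive. The kinase subunit Cks2 had 1588, 2199 and 1908 FPKM in knockout eggs and 1270.21, 1202 and 1189.93 FPKM in wild-type eggs (log2 0.62, limma adjusted p = 0.061, and 0.042 with the length trend removed). Fbxo5, the inhibitor of the anaphase-promoting complex, had 14.1, 11.01 and 11.7 FPKM in knockout eggs and 19.5, 18.9 and 18.5 FPKM in wild-type eggs (log2 -0.59, limma adjusted p = 0.073). Neither gene's groups overlapped. Of 46 listed genes of the spindle, its checkpoint and cohesion, 1 was called, Ndc80, which was higher, beside 0.32% of all genes. The list does not hold the cohesin release factor Wapl, which was called lower. In the 5 libraries that remain without knockout replicate 1, 4 of the 41 arrest genes were higher and 12 lower, and 5 of the 46 spindle genes were higher and 13 lower, beside 8.8% and 26.5% of all genes. The same fit after median-of-ratios scaling called 7 arrest genes higher and 9 lower, and 7 spindle genes higher and 5 lower, beside 14.5% and 17.9%, so the balance of the spindle list turned with the scaling.

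Of 21 tested genes in a list of calcium handling, 2 fell, Gca and Atp2a2, the calcium pump of the endoplasmic reticulum, beside 1.96% of all genes. Calb1 and Calr3, also called lower, are not in that list. Atp2a2 had 25.4, 21.6 and 23.4 FPKM in knockout eggs and 38.2, 39.8 and 41.7 FPKM in wild-type eggs (log2 -0.74, SE 0.14, limma adjusted p = 0.041), and the call was lost after median-of-ratios scaling (adjusted p = 0.076). Of 22 antioxidant genes the transcription factor Nfe2l2, which induces many of them, fell to 6.88 ± 0.794 FPKM in knockout eggs, against 14.9 ± 0.436 FPKM in wild-type eggs (log2 -1.02, limma adjusted p = 0.022 as deposited and 0.051 after median-of-ratios scaling). The dehydrogenase gene G6pdx averaged 6.74 ± 2.45 FPKM in knockout and 14.3 ± 0.909 FPKM in wild-type eggs, while the peroxiredoxin Prdx1 averaged 1054 ± 318 against 504 ± 64.4 FPKM. Neither passed (limma adjusted p = 0.057 and 0.058). Of 16 genes in a list of the p53 and BCL2 families 1 was called, Btg2, an antiproliferative factor that belongs to neither family. Btg2 had 3.74 ± 0.657 FPKM in knockout and 7.79 ± 0.758 FPKM in wild-type eggs (log2 -0.90, limma adjusted p = 0.042, and 0.062 after median-of-ratios scaling). The antioxidant and the p53 and BCL2 lists each had 1 gene called lower, beside 1.96% of all genes. Atp2a2 and Btg2 were called in 1 of the 6 fits that left out a library, and Nfe2l2 in 2. Without knockout replicate 1 there were 2 higher and 5 lower calcium genes, and 1 higher and 3 lower antioxidant genes. The same fit gave 2 higher and 3 lower genes in the p53 and BCL2 list. Of all genes it called 8.8% higher and 26.5% lower.

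In the lists of mRNA control limma called no gene. Of 30 genes of maternal mRNA storage and translation, 9 had an unadjusted p under 0.05 and 24 were negative (80%, beside 66.1% of all genes), with a median of -0.29. The poly(A)-binding protein Pabpc1l had 2.02, 0.698 and 0.766 FPKM in knockout eggs and 2.99, 2.71 and 3.27 FPKM in wild-type eggs (log2 -0.94, limma adjusted p = 0.070), and Igf2bp3 averaged 9.35 ± 2.81 against 17.5 ± 2.55 FPKM. Of 32 genes of maternal mRNA clearance, 9 had an unadjusted p under 0.05 and 26 were negative (81.3%), with a median of -0.25. There the m6A reader Ythdf3 averaged 13.5 ± 2.25 FPKM in knockout and 22.1 ± 1.69 FPKM in wild-type eggs (log2 -0.68, limma adjusted p = 0.066), and the decapping cofactor Lsm1 66.2 ± 14.7 against 39.5 ± 1.93 FPKM. After median-of-ratios scaling the medians were -0.15 for storage and -0.13 for clearance, beside -0.04 for all genes. With the length trend removed, 14 of the 30 storage genes and 17 of the 32 clearance genes were positive, so the lean of the clearance list turned. Without knockout replicate 1, 1 storage gene was higher and 10 lower, and 2 clearance genes were higher and 11 lower, beside 8.8% and 26.5% of all genes.

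Of 31 tested genes of the unfolded protein response and heat shock, 27 were negative (87.1%, beside 66.1% of all genes) and limma called none (11 at an unadjusted p under 0.05). Without knockout replicate 1, 1 of the 31 was higher and 13 were lower, beside 8.8% and 26.5% of all genes. With the length trend removed, 12 of the 31 were positive. Of 15 genes of DNA methylation and imprint protection none was called (6 at an unadjusted p under 0.05) and the median was -0.39. Without knockout replicate 1, 1 of the 15 was higher and 7 were lower, beside 8.8% and 26.5% of all genes. There the H3K9 methyltransferase Setdb1 averaged 3.58 ± 0.636 FPKM in knockout and 6.58 ± 0.339 FPKM in wild-type eggs (log2 -0.74, limma adjusted p = 0.059), and Zfp57, a zinc-finger protein that guards imprints, 8.75 ± 1.77 against 13.7 ± 1.18 FPKM. Uhrf1, the partner of maintenance methylation and 1 of 3 proteins listed here as partners of NLRP14, had 31.98, 19.4 and 21.8 FPKM in knockout eggs and 29.7, 32.5 and 35.5 FPKM in wild-type eggs. Its groups overlapped through knockout replicate 1 (log2 -0.43, SE 0.20, limma adjusted p = 0.19). Slc8b1, the mitochondrial sodium-calcium exchanger, was listed at 0 in all 6 libraries. Of 32 proteasome genes limma called none (9 at an unadjusted p under 0.05). Without knockout replicate 1, 5 of the 32 were higher and 6 lower, beside 8.8% and 26.5% of all genes.

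Of 19 tested genes in a list of histones and their partners, Slbp was the 1 called, beside 2.28% of all genes. In that list 13 were positive, beside 33.9% of all genes, with a median of 0.20. Without knockout replicate 1, 7 were higher and 1 lower, beside 8.8% and 26.5% of all genes. The list does not hold the histone H2A gene Hist1h2ap, which was called lower at 0.570 ± 0.0169 FPKM in knockout eggs, against 2.05 ± 0.504 FPKM in wild-type eggs (log2 -0.94, limma adjusted p = 0.037 as deposited and 0.056 after median-of-ratios scaling). It was called in 1 of the 6 fits that left out a library, resembles 22 other gene models at 90% identity or more, so that its reads may be shared, and was chosen with its values known. H3f3a, a gene of histone H3.3, had 60.3, 126 and 101 FPKM in knockout eggs and 45.8, 51.1 and 36.3 FPKM in wild-type eggs (log2 1.04, limma adjusted p = 0.072). Of 18 genes in a list headed ID proteins and BMP-SMAD signalling, 2 were called higher, Id3 and Tcf15, beside 0.32% of all genes. Tcf15 is neither an ID protein nor a BMP-SMAD component, and the list was written with earlier results of these data known. Of the 18, 14 were negative (77.8%, beside 66.1% of all genes). Without knockout replicate 1, 2 of the 18 were higher and 7 lower, beside 8.8% and 26.5% of all genes. Id3, an inhibitor of helix-loop-helix factors, had 3.41, 5.37 and 6.85 FPKM in knockout eggs and 2.04, 1.24 and 1.35 FPKM in wild-type eggs (log2 1.26, limma adjusted p = 0.042). Tcf15, a helix-loop-helix transcription factor, had 12.9, 7.47 and 8.49 FPKM in knockout eggs and 2.07, 4.42 and 1.74 FPKM in wild-type eggs (log2 1.54, limma adjusted p = 0.042). Id3 lost its call after median-of-ratios scaling (adjusted p = 0.051) and Tcf15 with the length trend removed (0.055), and both were called in 1 of the 6 fits that left out a library. The receptor Bmpr2 of that list averaged 6.55 FPKM in knockout and 10.1 FPKM in wild-type eggs (limma adjusted p = 0.10). Of 11 interferon-induced genes Ifitm3 was the 1 called, beside 0.32% of all genes called higher. Without knockout replicate 1, 3 of the 11 were higher and 1 lower. Of 7 tested 2-cell genes limma called none (3 at an unadjusted p under 0.05), and without that library 1 was higher and 2 were lower. For both lists the shares of all genes in that fit were 8.8% and 26.5%.

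**Figure D4:**
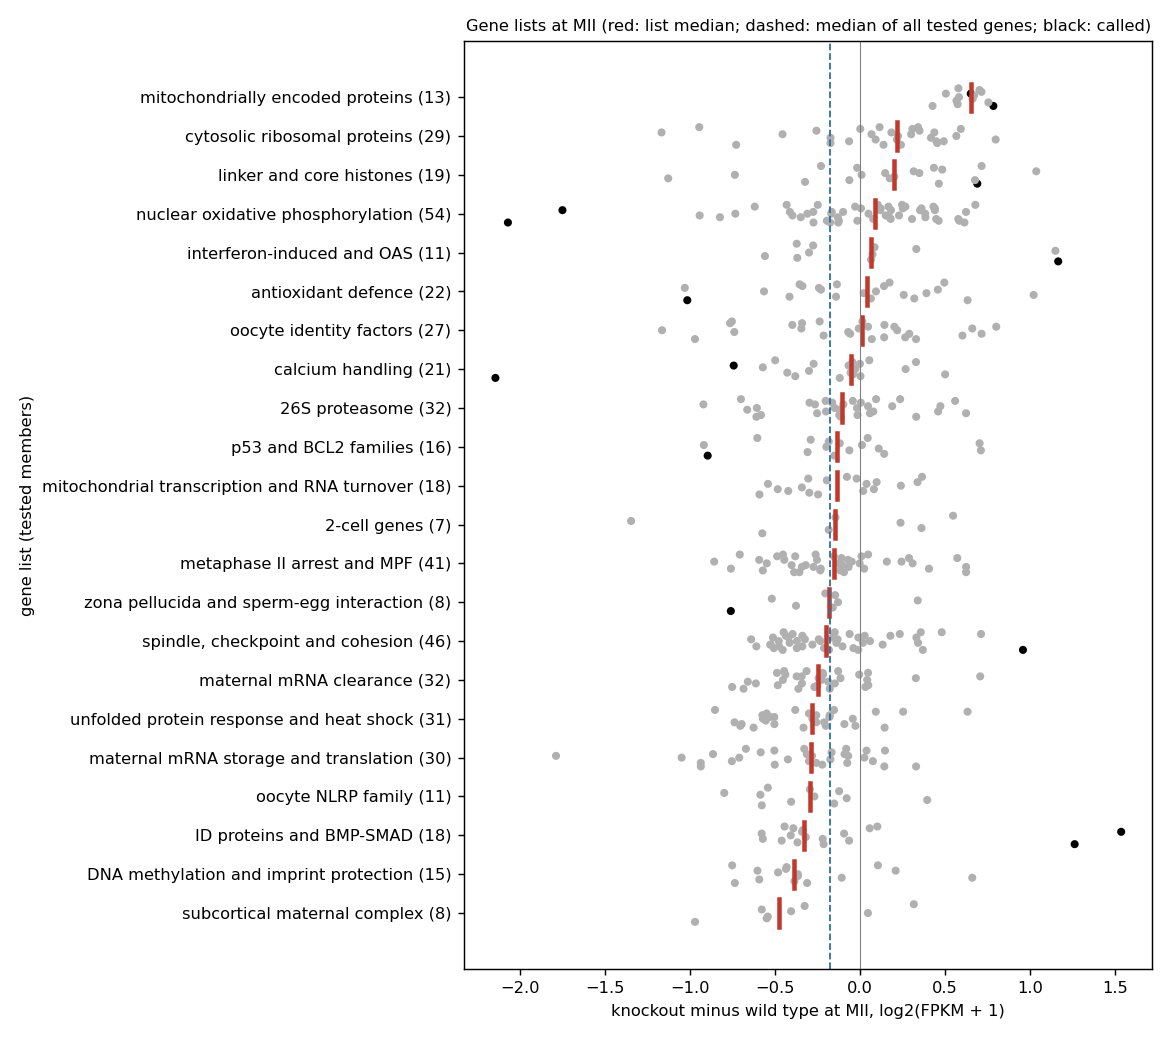
Differences at MII (knockout minus wild type, log2(FPKM + 1)) of the tested members of each gene list, 1 point a gene, with called genes in black, the list median in red and the median of all tested genes (-0.18) dashed. The 13 mitochondrially encoded proteins all lie above 0, while called genes elsewhere are single points such as Gca and Ndufa1 on the left.

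Transcripts without a protein product were also called. Of 667 tested long noncoding RNAs, 6 were higher and 28 lower, which is 4.198% lower beside 1.96% of all genes. Of 1319 pseudogenes, 2 were higher and 24 lower (1.82%). Of 6549 protein-coding genes 19 were higher and 115 lower (1.76%), beside 0.32% and 1.96% of all genes. Without knockout replicate 1 the order of these shares was another, beside 8.8% of all genes higher and 26.5% lower. Lower were 18.1% of the noncoding RNAs (80 higher and 121 lower), 15.01% of the pseudogenes (210 higher and 198 lower) and 30.3% of the protein-coding genes (463 higher and 1983 lower). The noncoding RNA Gm30564 had 2.24, 2.29 and 2.15 FPKM in knockout eggs and 7.92, 9.05 and 8.20 FPKM in wild-type eggs (log2 -1.54, limma adjusted p = 0.0091). The pseudogene Olfr650-ps1 had 2.54, 1.96 and 2.97 FPKM in knockout eggs and 12.7, 21.8 and 19.2 FPKM in wild-type eggs (log2 -2.41, limma adjusted p = 0.0083). It lies at 104203437 to 104207865 on chromosome 7, as Nlrp14 does. Gm30564 and this pseudogene were chosen with their values known. Olfr650-ps1, Cdc42ep3 and Nlrp14 were the 3 genes called in all 6 fits that left out a library. Of the 199 called genes, 41 had another gene model at 90% identity or more over at least 50% of their length, 34 of them lower and 14 protein coding, and for these the sharing of reads is uncertain. Examples are Gm8396, 95.5% identical to Slbp and also higher, and Gm9824 and Gm10819, near copies of Pebp1 and also lower.

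Many of the lower genes leaned the same way in GV oocytes, whose libraries are separate from those at MII. Of the 171, 148 were tested at GV and 134 of these had a negative difference (90.5%, beside 63.7% of all genes tested at both stages), with a median of -0.62 beside -0.10. At GV 5 genes of 11635 were called (0.043%), 1 higher (0.00859%) and 4 lower (0.0344%), and 3 of them, Nlrp14, Olfr650-ps1 and Gm30564, were among the 148. Gca had 0.397 FPKM in knockout and 2.77 FPKM in wild-type GV oocytes as means, Prr23a3 5.75 against 20.0 FPKM and Cdc42ep3 1.07 against 5.01 FPKM. Gca, Prr23a3 and Cdc42ep3 were not called at GV (adjusted p = 0.092 to 0.15). Of the 28 higher genes, 25 were tested at GV and 19 were positive (76%), with a median of 0.42. Ifitm3 averaged 220.4 FPKM in knockout and 109 FPKM in wild-type GV oocytes (log2 1.00, limma adjusted p = 0.096).

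A smaller set of the lower genes had no negative difference in GV oocytes. Of the 148 lower genes, 14 had a difference above 0 at GV, among them Ndufa1, Gstm5, Pebp1 and Zp3. Their median exon length was 430.5 nt, against 2735 nt for the other 134, and in wild type their level changed by a median log2 of -2.05 between GV and PN5, against -0.08. That wild-type change uses no MII library. It does share the wild-type GV libraries with the GV difference that set the 14 apart, and the wild-type PN5 libraries with the calls at PN5. Other lists shared the lean at GV and the wild-type decline. At GV 71 of 76 cytosolic ribosomal proteins and 64 of 76 nuclear respiratory genes were positive, beside 36.3% of the genes tested at both GV and MII. These list counts hold every member tested at GV, of which fewer, 29 and 54, were tested at MII, so list and background are unlike sets. The members of the 2 lists tested at MII had median wild-type changes of -2.51 and -2.33. The median exon lengths of these members were 1651 and 1507.5 nt, beside 3172 nt for all tested genes. Of the 14, 8 were called lower at PN5, against 38 of 129 tested among the others. At GV, knockout replicate 3 differed from the other libraries. Its values summed to 456463 FPKM, against 372963 to 384375 FPKM in the others, and 10379 genes reached 1 FPKM, against 11264 to 11662. The lean at GV of the 14 genes and of these lists was not tested without that library. Ndufa1 had 96.8, 99.5 and 201 FPKM in knockout GV oocytes (replicates 1, 2 and 3) and 96.3, 84.0 and 99.99 FPKM in wild-type GV oocytes. At PN5 it had 1.68, 1.97 and 1.22 FPKM in knockout zygotes, against 20.7, 17.7 and 17.6 FPKM in wild-type zygotes (log2 -2.91, limma adjusted p = 0.0040). Gstm5 averaged 136 FPKM in knockout and 121 FPKM in wild-type GV oocytes, and 17.2 against 63.3 FPKM at PN5 (log2 -1.83, limma adjusted p = 0.029). Uqcr11 averaged 49.4 against 49.0 FPKM at GV and 0.481 against 2.26 FPKM at PN5 (log2 -1.13, limma adjusted p = 0.039).

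At PN5 limma called 578 of 9483 genes (6.1%), 54 higher (0.569%) and 524 lower (5.53%). After median-of-ratios scaling it called 77 (0.812%), 21 higher (0.221%) and 56 lower (0.591%), so the number of calls at PN5 changed with the scaling. Genes at an unadjusted p under 0.05 numbered 2964 as deposited and 3293 after that scaling. The MII and PN5 comparisons share no library. Of the 153 lower MII genes tested at PN5, 49 were called lower there, which is 32.03% of them and 10.4% of the 469 genes called lower at PN5 among those tested at both stages, beside 5.59% of all genes tested at both. With PN5 scaled by the median of ratios, 15 of the 153 were called lower (9.8%), beside 0.513% of all. Of the 25 higher MII genes tested at PN5, 2 were called higher and 1 lower, beside 0.62% of all genes called higher. Tcf15 was 1 of the higher ones (17.2, 21.997 and 12.2 FPKM in knockout zygotes, against 0, 4.55 and 3.24 FPKM in wild type). Rab32 was lower at both stages and averaged 12.1 FPKM in knockout and 25.7 FPKM in wild-type zygotes. Tnfsf11, Hilpda, Calb1, the calcium buffer calbindin, Hmgn5, a nucleosome-binding protein, and Zfp820 were also called lower at both. At PN5 their log2 differences were -1.48 for Tnfsf11, -1.61 for Hilpda, -1.81 for Calb1, -1.36 for Hmgn5 and -1.59 for Zfp820. After median-of-ratios scaling Ndufa1, Gstm5 and Zfp820 stayed called at PN5 (adjusted p = 0.0062, 0.039 and 0.047). Tcf15, Rab32, Uqcr11, Tnfsf11, Hilpda, Calb1 and Hmgn5 did not (0.057 to 0.066).

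At the neighbouring stages the mitochondrial transcripts were measured in the same way. The summed level of the 13 transcripts averaged 8057 ± 3625 FPKM in knockout and 7814 ± 575 FPKM in wild-type GV oocytes, a ratio of 1.03 (exact permutation test, two-sided, p = 1). At PN5 it averaged 28401 ± 3611 FPKM in knockout and 51429 ± 36622 FPKM in wild-type zygotes, a ratio of 0.552 (exact permutation p = 0.4), with wild-type libraries from 23245 to 92823 FPKM. Knockout GV libraries ranged from 5802 to 12239 FPKM. Of the 13 transcripts, 3 had a positive difference at GV and 0 at PN5. Whether the ratio of the sums differs between stages was not tested. By gene, the limma interaction did not pass for mt-Nd4 against GV (adjusted p = 0.72) or PN5 (0.107). It did not pass for mt-Nd1 either (limma adjusted p = 0.78 against GV and 0.071 against PN5).

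Some differences were tested against those of another stage. The interaction of genotype with stage passed for 15 of 12478 genes between MII and GV (0.12%), 6 higher (0.0481%) and 9 lower (0.0721%). Between MII and PN5 it passed for 759 of 10190 (7.45%), 468 higher (4.59%) and 291 lower (2.86%). With the replicate number as a block limma called 3 interactions with GV and 0 with PN5 (3559 at an unadjusted p under 0.05), and none of the genes named here kept its call (adjusted p = 0.083 to 0.205 for Smap1, Tmem243 and Mtus1 against GV, and 0.074 for Cdc42ep3 and Arhgap1 against PN5). Smap1 had 7.02, 7.19 and 7.19 FPKM in knockout GV oocytes and 15.0, 12.48 and 9.92 FPKM in wild-type GV oocytes, so the groups separated the opposite way from MII. Its interaction was 2.59 (limma adjusted p = 0.015). Tmem243 had 6.70, 5.18 and 8.43 FPKM in knockout and 12.4, 13.6 and 10.1 FPKM in wild-type GV oocytes, with an interaction of 2.02 (limma adjusted p = 0.015). Mtus1 averaged 17.7 FPKM in knockout and 19.6 FPKM in wild-type GV oocytes (interaction 1.74, limma adjusted p = 0.025). Against PN5, Cdc42ep3 had an interaction of -2.19 (limma adjusted p = 0.037), with 4.57 FPKM in knockout and 6.38 FPKM in wild-type zygotes as means. Arhgap1, which codes for a GTPase-activating protein that acts on CDC42, had 1.67, 1.12 and 1.00 FPKM in knockout eggs and 3.44, 5.08 and 5.42 FPKM in wild-type eggs (log2 -1.31, limma adjusted p = 0.025), and was called in 1 of the 6 fits that left out a library. In zygotes the order was reversed, with 3.98, 2.82 and 3.28 FPKM in knockout and 0.302, 1.44 and 1.31 FPKM in wild-type zygotes (interaction -2.47, limma adjusted p = 0.037).

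**Figure D5:**
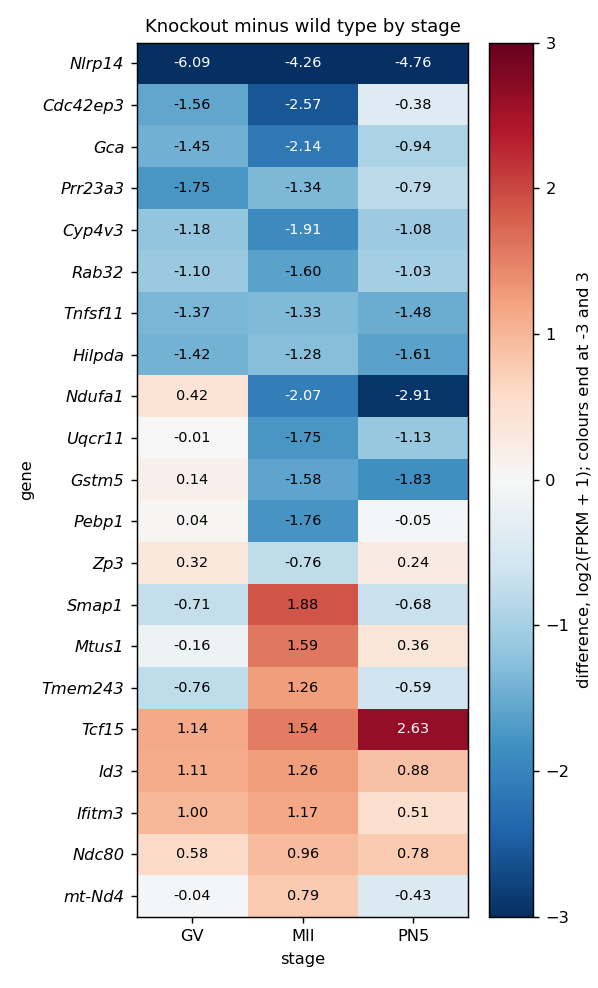
Difference between knockout and wild type, in log2(FPKM + 1), of 21 genes at GV, MII and PN5, in blue where the knockout is lower and red where it is higher. Ndufa1, Uqcr11, Gstm5, Pebp1 and Zp3 are near or above 0 at GV and below 0 at MII, while Smap1 and Tmem243 are below 0 at GV and PN5 and above 0 at MII.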

How the data were processed

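The members and gene lists were chosen with earlier results of these data known. The authors deposited 1 table of FPKM values per library for 55487 Ensembl genes; StringTie and the build GRCm38 are named in the submitters' processing notes, and versions, aligner and filters are not given in the sources used here. GENCODE M21 matched 55227 identifiers, and 260 stayed without a symbol. For genes with 1 transcript, 98.9 to 99.1% of low MII values were whole multiples of 1 fragment (tolerance 0.02, multiples up to 30). Values of genes with more transcripts were not whole, which is why a count model was left out.

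Values were tested as log2(FPKM + 1) with limma 3.58.1 in R 4.3.3 (trend and robust empirical Bayes, Benjamini-Hochberg adjustment, threshold 0.05), on genes that reached 1 FPKM in 3 or more of the 6 libraries. Differences are knockout minus wild type. GV and PN5 were fitted alike, and interactions over the 12 libraries of a pair of stages. The fit was tested on simulated data. Alternatives were median-of-ratios scaling, TPM, removal of a loess trend with exon length, other pseudocounts and filters, array weights, all 24 libraries, a replicate block and leaving out each library. The named genes are Nlrp14, the 12 largest rises and falls of at least 5 FPKM, those of highest level, called or smallest-p list members, genes called at both MII and PN5 or under 3 scalings, and interaction genes. Python 3.11.15, pandas 2.3.3, numpy 2.4.6, scipy 1.17.1 and matplotlib 3.10.9 were used. 1 gene list is not reported here.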

Additional observations from a re-analysis of the deposited data

Results flagged for a closer look

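Of the 15 genes called against GV and the 759 called against PN5 by the limma interaction test, those named in the text are given. Against GV, the interaction was 2.59 for Smap1 (adjusted p = 0.015), 2.02 for Tmem243 (0.015), 1.74 for Mtus1 (0.025) and -2.49 for Ndufa1 (0.041). After median-of-ratios scaling that of Ndufa1 did not pass (limma adjusted p = 0.125). Smap1, Tmem243 and Mtus1 kept theirs (0.023, 0.026 and 0.013). Against PN5, genes higher at MII relative to PN5 were Smap1 (2.55), H3f3a (2.26), Prdx1 (1.85), Tmem243 (1.85), Rps15 (1.47), Psmg4 (1.44), Cks2 (1.25) and Mtus1 (1.23). Genes lower at MII relative to PN5 were Arhgap1 (-2.47), Epn2 (-2.21), Cdc42ep3 (-2.19), Pebp1 (-1.72), Galnt9 (-1.67) and Ythdf3 (-1.05). Adjusted p-values against PN5 ran from 0.024 for Galnt9 to 0.0495 for Smap1, Pebp1 and Ythdf3. Galnt9 averaged 1.88 FPKM in knockout and 4.41 FPKM in wild-type eggs, and 1.43 against 0.427 FPKM in zygotes. Cks2, Prdx1, Ythdf3, H3f3a and Rps15 were not called at MII itself, and all interactions with PN5 and the 4 given with GV were lost with the replicate number as a block.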

How the results depend on the processing

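The 199 calls became 83 after median-of-ratios scaling, 132 with the length trend removed, 69 with a pseudocount of 0.1, 8 with no filter, 63 when the mean had to reach 5 FPKM, 3527 with array weights, 132 with the replicate block and 3 to 3088 with 1 library left out (3, 14 and 16 without wild-type replicates 1, 2 and 3, and 3088, 68 and 12 without knockout replicates 1, 2 and 3). The share of lower calls was 85.9% as deposited, 75.9% after median-of-ratios scaling and 63.6% with the length trend removed. Median-of-ratios scaling with 1 library left out, chosen after seeing the data, gave 3, 7 and 7 without wild-type replicates 1, 2 and 3 and 2830, 41 and 1 without knockout replicates 1, 2 and 3. TPM gave 224 and all 24 libraries in 1 fit 253. The 15 interactions with GV became 7 with that mean and 3 with the block. The 759 with PN5 became 1206 after median-of-ratios scaling and 0 by limma with the block (3559 at an unadjusted p under 0.05). The deviations of same-numbered libraries from their group means at MII had r = -0.21, 0.01 and -0.11. With 3 libraries a group these values cannot tell whether same-numbered libraries were processed together, and the labels do not say. Median-of-ratios scaling within the stage, chosen after seeing the data, gave 77 calls at PN5 in place of 578. The cause of these changes was not tested. No called gene named here changed sign under any setting, and Cyp19a1, not called at 0.04, was -0.14 as TPM and -0.044 to 0.14 with 1 library left out. Values near 0.1 FPKM rest on single fragments.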
